A study of Homo sapiens with 29 samples.

Results

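The DNA replication and G1/S genes are a set of 57 genes for the proteins that license, fire and copy replication origins, with those that supply nucleotides and histones and a pair of transcription regulators that act at the G1/S transition. They were chosen by gene symbol from a fixed list. All 57 were in each of the 3 count tables, which share 9431 genes, so none was lost to the minimum count of 700 in at least 2 samples that the authors set. The list was made with earlier results of these data known, so this full presence is not a result about the pathway. The cells were hTERT RPE-1 (RPE1), a human retinal pigment epithelial line immortalised with telomerase, carrying the nuclear reporters H2B-emiRFP703 and NLS-3xDendra2. Cells were imaged, marked with a 405 nm light pulse (labelled UV in the study) of 200 or 800 ms and sorted by fluorescence before bulk RNA-seq, and per the study's methods all of them, DMSO cells too, received the Cdk1 inhibitor RO-3306 shortly before imaging.

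The 22 libraries fell into 6 groups. DMSO cells (n = 4 libraries) and cells given the Mps1 inhibitor BAY1217389 (Mps1i, 100 nM for 24 h, n = 4) came from 2 experiments with 1 library per pulse in each. The study describes the libraries of an experiment here as technical replicates, so n = 4 stands for 2 independent experiments, and p-values over the 4 libraries are too small as tests over experiments. Cells given the same Mps1i treatment were also sorted in 2 other experiments into those without (MN-, n = 4) and those with a detected micronucleus (MN+, n = 4), so MN- cells are treated cells and not untreated controls. Micronuclei are small bodies of missegregated chromatin outside the main nucleus. The last 2 groups held Mps1i-treated, synchronised cells with ruptured micronuclei (rupture+, n = 3, all marked with 200 ms) or with intact micronuclei (rupture-, n = 3, all marked with 800 ms), from 3 experiments. For these the labels give a pretreatment with 10 µM RO-3306 for 20 h, whereas the methods describe a Cdk4/6 inhibitor instead, so the synchronising drug is uncertain. The study describes these cells as synchronised before Mps1i and marked in the G1 phase that followed. Pulse length and rupture group cannot be told apart. The sorted groups were enriched and not pure. The study reports that its classifier missed some micronuclei, so some MN- cells carried them. It also estimates that ongoing rupture of intact micronuclei lowered the purity of the rupture- group. The table, the days and the synchronisation of the rupture libraries coincide, so no test was made between tables.

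Total counts ran from 47919780 to 145242185 per library. Of 9 genes that mark the line or its tissue of origin, 4 were in all tables, namely the keratins KRT8 and KRT18, the pigment regulator MITF and the telomerase gene TERT. The visual cycle and pigment markers RPE65, RLBP1, BEST1, TYRP1 and PMEL were below the authors' minimum. Levels are CPM, counts scaled to a common library size together over the genes in all 3 tables, and per kb of the Ensembl canonical transcript where genes are compared with each other. A gene passed where its Benjamini-Hochberg adjusted p in edgeR's quasi-likelihood test, over all genes of the table, was below 0.05.

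Replication is prepared in G1, when the origin recognition complex (ORC), CDC6 and CDT1 load the MCM2 to MCM7 helicase on DNA, and geminin (GMNN) blocks reloading once S phase has begun. The kinase CDC7 with its activator DBF4, and then MCM10, CDC45 and the GINS complex, turn the loaded helicase into a moving one. Primase and the polymerases then copy the strands behind it with the sliding clamp PCNA, its loader RFC and the single-strand binding protein RPA. Many of these genes are transcribed by E2F factors, which the RB pathway holds back in G1. In bulk RNA, fewer cells in S phase and less RNA of a gene per cell cannot be told apart.

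In DMSO cells the members differed widely in level. RRM2, the regulated subunit of ribonucleotide reductase, was the highest at 321 CPM per kb, followed by the helicase subunit MCM7 at 278 and the salvage kinase TK1 at 250. The lowest were POLA1, the catalytic subunit of polymerase alpha, at 4.26 CPM per kb, the origin subunit ORC2 at 6.66 and the fork checkpoint adaptor CLSPN at 7.88. RRM2 gave 1044 CPM ± 185 (SD, n = 4) in DMSO, with 1215 and 1193 CPM in experiment 1 (200 and 800 ms) against 865 and 906 CPM in experiment 2. MCM7 gave 687 CPM ± 45.4 and TK1 357 CPM ± 16.7, whereas POLA1 gave 23.3 CPM ± 1.64, ORC2 28.5 CPM ± 2.25 and CLSPN 67.1 CPM ± 9.64 (SD, n = 4 each). The experiments of RRM2 did not overlap, and the same was so for many members. Both DMSO libraries of experiment 2 lay below both of experiment 1 for 43 of 57 members, where 22.9% of all genes did. In the Mps1i cells this held for 53 members, against 29% of all genes.

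**Figure D1:**
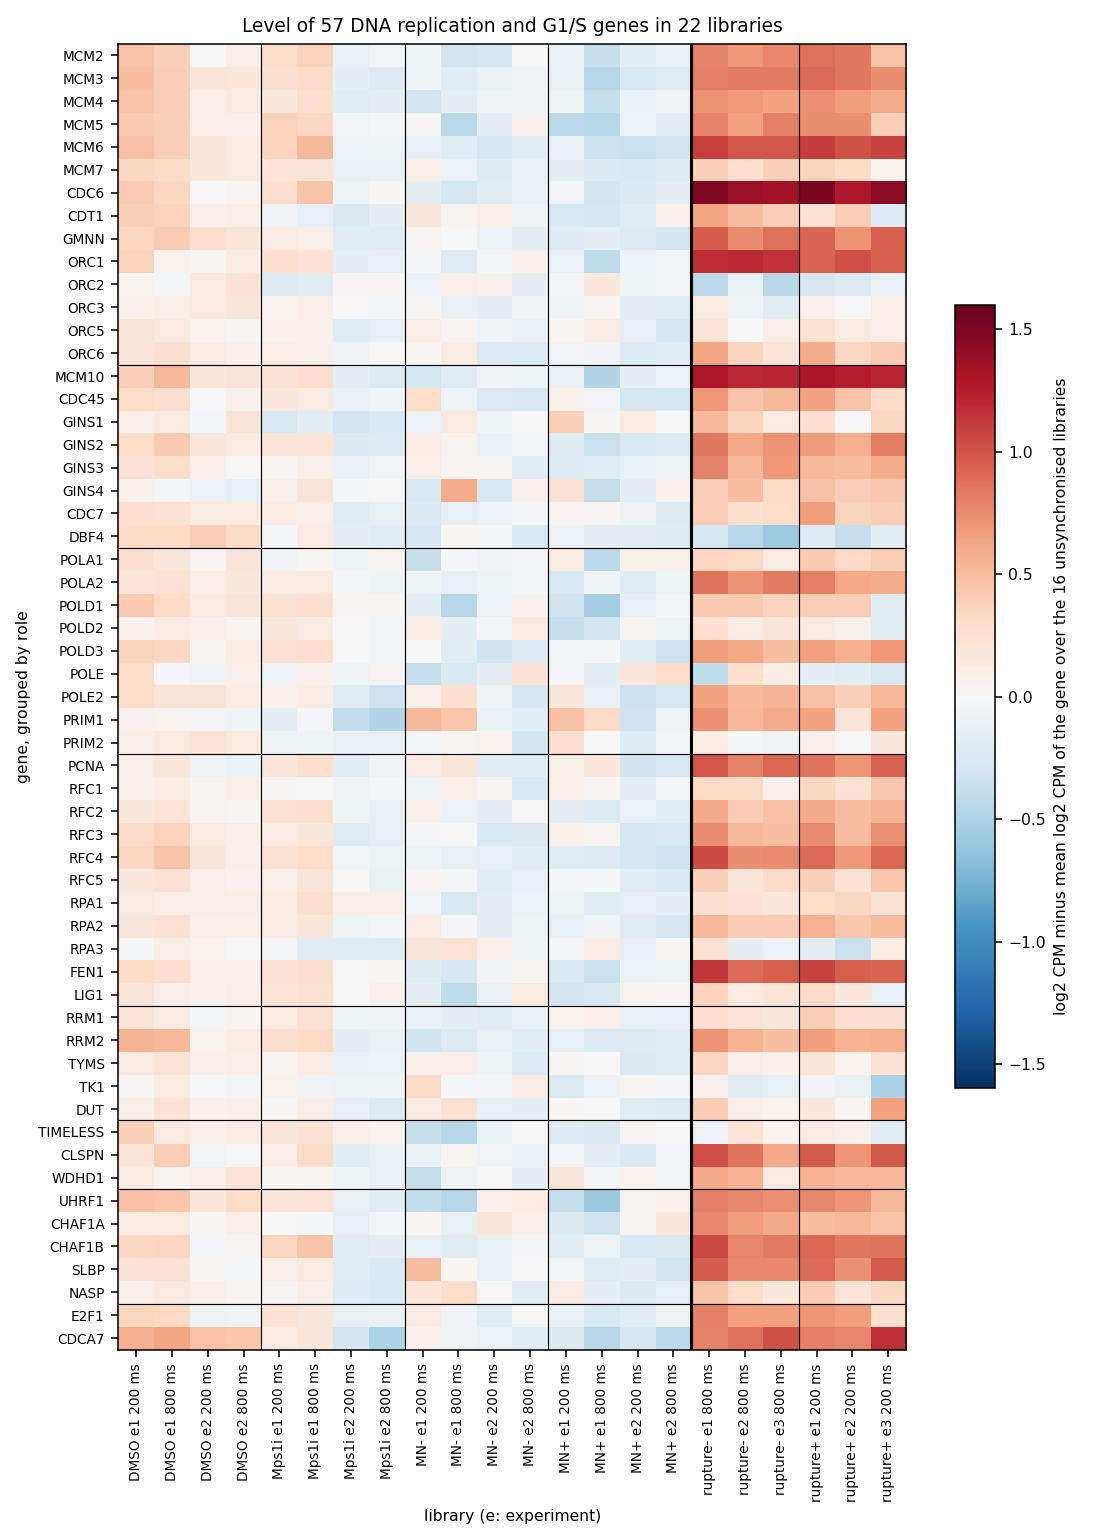
Level of each of the 57 genes (rows, grouped by role) in each of the 22 libraries (columns, e for experiment, with the pulse in ms). Colour is log2 CPM minus the mean log2 CPM of that gene over the 16 unsynchronised libraries; the thick line sets the 6 synchronised libraries apart, where 26 genes lie above every unsynchronised library.

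Mps1i treatment came with lower levels of replication genes and with no higher one. Without a term for the experiment, 7 of 57 members fell and 0 rose, where 5.76% of all 10577 genes tested fell. The members that fell were CDCA7, DBF4, CDT1, GINS1, GMNN, PRIM2 and RPA3. The estimates of 53 members were negative and those of 4 positive. The median log2 fold change was -0.14, beside 0.00 over all genes. 22 members, all lower, had an unadjusted p below 0.05, beside 14.3% of all genes that were lower at that p.

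The experiment a library came from carried much of the spread, and the titles give the libraries of an experiment the same date. With the experiment as a replicate block, 32 members fell and 0 rose, where 11.8% of all genes fell. The median was -0.14 in this fit as well. This count takes the pulses of an experiment as separate samples. With both pulses summed and the block kept, which leaves 2 samples per group, 12 members fell and 0 rose, where 4.04% of all genes fell. These were MCM3, MCM4, MCM10, RFC3, RRM2 and UHRF1 and the members that fell with the condition alone other than RPA3. The calls with the block given by role below come from the unsummed libraries. All 4 Mps1i libraries lay below all 4 DMSO libraries for 11 members, beside 9.65% of all genes. Compared within pairs of the same experiment and pulse, Mps1i was lower in 4 of 4 pairs for 43 members, beside 21.1% of all genes.

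**Figure D2:**
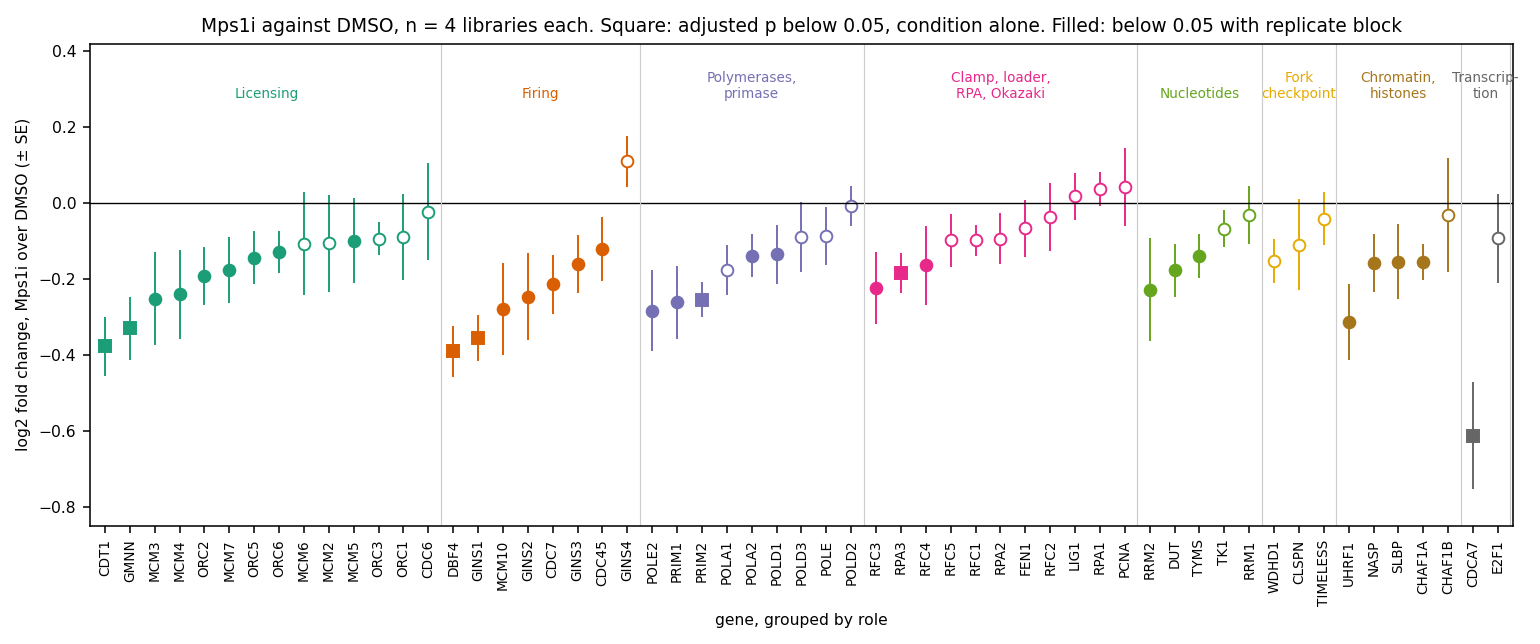
Log2 fold change of Mps1i over DMSO with its SE for each of the 57 genes, grouped by role (n = 4 libraries per group). Squares passed with the condition alone (7 genes) and filled symbols passed with the replicate block (32 genes); 53 of the 57 estimates lie below 0.

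CDCA7, an E2F and MYC target that takes part in chromatin remodelling and DNA methylation (chr2:173354820-173368997), had the largest change. Its level in DMSO was 45.9 and 48 CPM in experiment 1 (200 and 800 ms) and 42.6 and 42.4 CPM in experiment 2, and in Mps1i cells 34.7, 35.7, 25.2 and 21.8 CPM in the same order. The groups did not overlap. The log2 fold change was -0.61 ± 0.141 (SE, n = 4 per group, edgeR adjusted p = 0.019). The call was lost without the Mps1i 200 ms library of experiment 2 (log2 fold change -0.54, edgeR adjusted p = 0.0546). The fall was -0.41 on the log2 scale within experiment 1 and -0.85 within experiment 2, a difference of -0.45 between experiments that did not pass (edgeR adjusted p = 0.112).

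DBF4, the activating subunit of the origin-firing kinase CDC7 (chr7:87876216-87909553), gave 63.1 and 63.2 CPM in DMSO cells of experiment 1 and 66.1 and 62.6 CPM in experiment 2. In Mps1i cells it gave 49.4 and 55.2 CPM, then 45.8 and 44.7 CPM. Every Mps1i library was below every DMSO library, at a log2 fold change of -0.39 ± 0.0665 (SE, n = 4 per group, edgeR adjusted p = 0.00425). CDT1, the loader of the MCM helicase (chr16:88803789-88809258), stood at 68.2, 68, 55.4 and 56.5 CPM in DMSO and at 50.5, 48.1, 44.9 and 47.7 CPM in Mps1i cells. These groups were also apart, with a log2 fold change of -0.38 ± 0.0781 (SE, n = 4 per group, edgeR adjusted p = 0.0117). For CDT1 the DMSO libraries of experiment 1 were the high ones, so its change was larger there (-0.47) than in experiment 2 (-0.27), opposite to CDCA7 and DBF4. The difference did not pass (edgeR adjusted p = 0.356).

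GINS1, a subunit of the GINS complex of the active helicase (chr20:25391008-25452700), gave 51.7, 53, 46.9 and 55.3 CPM in DMSO and 40.1, 42.8, 38.8 and 40.4 CPM in Mps1i cells. The change was -0.35 ± 0.0606 on the log2 scale (SE, n = 4 per group, edgeR adjusted p = 0.00435), and it was -0.34 and -0.37 within experiments 1 and 2. PRIM2, the large subunit of primase (chr6:57314805-57646850), gave 44.1, 46.2, 48 and 46.2 CPM in DMSO against 39.3, 39.6, 38 and 38.1 CPM, at -0.25 ± 0.0462 (SE, n = 4 per group, edgeR adjusted p = 0.0061). The DMSO and Mps1i libraries of both genes did not overlap. DBF4, CDT1, GINS1 and PRIM2 passed in all 8 fits that each left out 1 library. Without experiment 2, however, DBF4 (-0.27, edgeR adjusted p = 0.0713) and PRIM2 (-0.19, edgeR adjusted p = 0.145) did not pass.

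GMNN, the inhibitor of relicensing (chr6:24774931-24786099), gave 115, 120, 109 and 103 CPM in DMSO and 99.3, 97.1, 80.7 and 79.1 CPM in Mps1i cells. Its log2 fold change was -0.33 ± 0.0831 (SE, n = 4 per group, edgeR adjusted p = 0.0273). The groups were apart, but 5 of the 8 fits without 1 library lost the call. These were the fits without DMSO 200 ms (adjusted p = 0.0605 in edgeR) or 800 ms (0.0687) of experiment 1, and without Mps1i 200 ms (0.0751), Mps1i 800 ms (0.0661) or DMSO 200 ms (0.0522) of experiment 2. RPA3, the small RPA subunit (chr7:7636518-7718607), passed at the edge of the threshold with -0.18 ± 0.0524 (SE, n = 4 per group, edgeR adjusted p = 0.045). It gave 64.8, 70.8, 68.4 and 65.7 CPM in DMSO and 64.4, 58.4, 57.9 and 57.2 CPM in Mps1i cells. Its call held only in the fit without Mps1i 200 ms of experiment 1, and the other 7 gave adjusted p-values up to 0.117 in edgeR. Exons of other genes cover 5.84% of the RPA3 transcript, and the library kit did not keep strand.

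Among the members that did not pass, the largest estimates were those of UHRF1, which brings the maintenance methyltransferase DNMT1 to replicated DNA, and POLE2, a subunit of polymerase epsilon. UHRF1 gave 302, 298, 249 and 268 CPM in DMSO and 250, 255, 201 and 193 CPM in Mps1i cells, so the groups touched only through the DMSO library at 249 CPM. The estimate was -0.31 ± 0.099 (SE, n = 4 per group, edgeR adjusted p = 0.0622), and with the replicate block it fell by 0.32 on the log2 scale (edgeR adjusted p = 3.68e-04) and also passed with pulses summed (edgeR adjusted p = 0.0127). UHRF1 also passed without Mps1i 800 ms of experiment 1 (edgeR adjusted p = 0.0356). POLE2 gave 15.3, 14.4, 14.4 and 13.5 CPM in DMSO and 13.2, 13.5, 10.9 and 9.89 CPM in Mps1i cells. Its estimate was -0.28 ± 0.106 (SE, n = 4 per group, edgeR adjusted p = 0.105), and it passed with the block (edgeR adjusted p = 0.0182) but not with pulses summed (edgeR adjusted p = 0.0992).

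**Figure D3:**
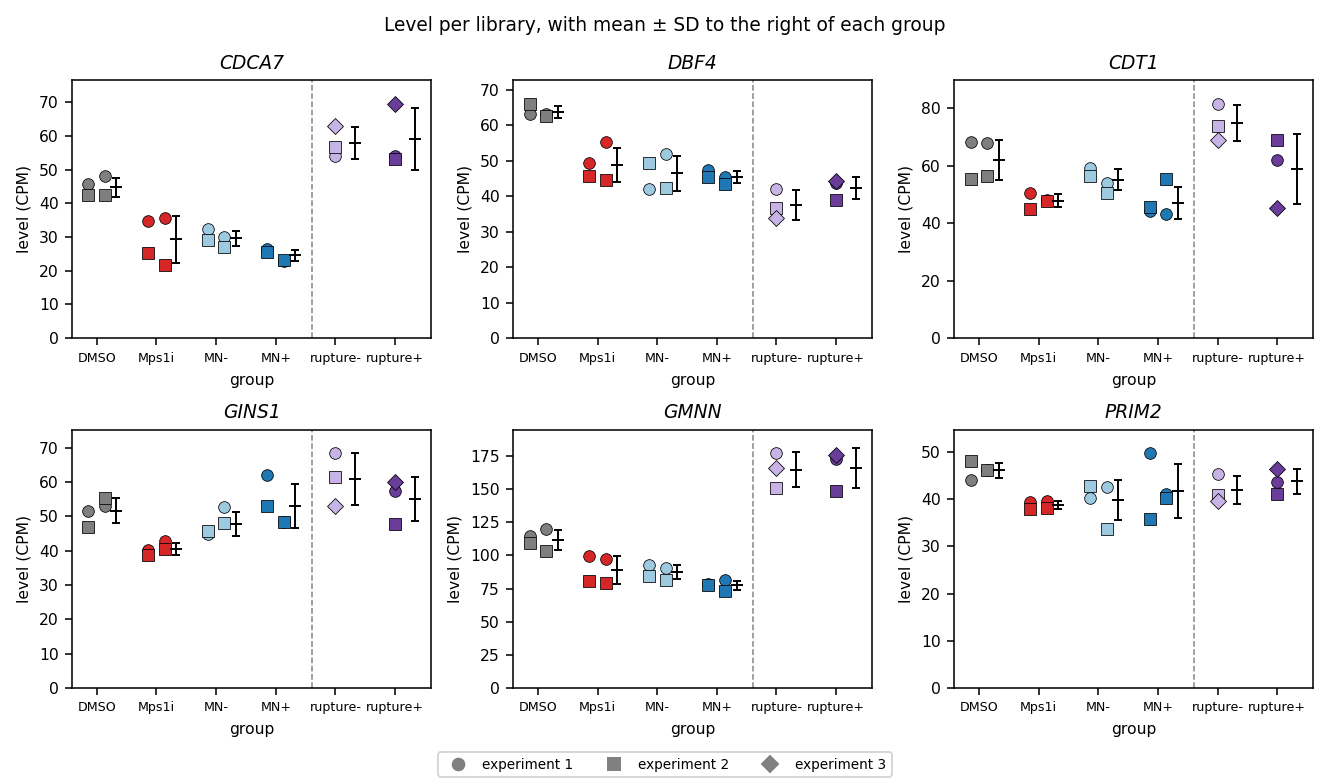
Level (CPM, linear axis from 0) of CDCA7, DBF4, CDT1, GINS1, GMNN and PRIM2 in every library of the 6 groups, with the mean ± SD beside each group (n = 4, and n = 3 for the rupture groups); symbols give the experiment. All Mps1i libraries lie below all DMSO libraries for each gene, and the synchronised groups right of the line are high for CDCA7 and GMNN and not for DBF4 or PRIM2.

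By role, the 14 licensing genes had a median log2 fold change of -0.14, with 2 falling (CDT1 and GMNN) and 12 not passing. With the block 9 fell. Of the helicase subunits MCM3 (-0.26), MCM4 (-0.25), MCM7 (-0.18) and MCM5 (-0.10) fell in this fit. MCM2 (-0.11, edgeR adjusted p = 0.0533) and MCM6 (-0.13, edgeR adjusted p = 0.135) did not pass, though their estimates were at least as large in size as that of MCM5. With pulses summed MCM7 (edgeR adjusted p = 0.0804) and MCM5 (edgeR adjusted p = 0.236) did not pass either. Differences between subunits were not tested. Of the origin recognition genes ORC2 (-0.19), ORC5 (-0.15) and ORC6 (-0.13) fell with the block, and ORC1 (-0.10) and ORC3 (-0.09) did not pass. CDC6, which loads the helicase with CDT1, was nearly level, at -0.03 with the block (edgeR adjusted p = 0.698).

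The 8 genes of origin firing and helicase activation had the lowest median among the roles with more than 2 members, -0.23. DBF4 and GINS1 fell without the block, and with it 7 of 8 fell, also CDC7 (-0.22), MCM10 (-0.29), GINS2 (-0.26), GINS3 (-0.16) and CDC45 (-0.12). GINS4 was the exception, with an estimate of 0.11 in both fits that did not pass (edgeR adjusted p = 0.305 and 0.0978). It was the largest positive estimate among the members, and 33.4% of the GINS4 transcript lies under exons of opposite-strand genes.

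Polymerase and primase genes had a median of -0.14. PRIM2 fell without the block, and 5 of 9 fell with it, namely PRIM2, PRIM1 (-0.27), POLE2 (-0.29), POLA2 (-0.14) and POLD1 (-0.14). The other 4 were POLA1 (-0.17, edgeR adjusted p = 0.0549), POLD3, POLE and POLD2, the last at -0.01. Exons of other genes cover 55.8% of the POLA2 transcript and 37.5% of PRIM1, as they do 32.4% of MCM2 above.

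The clamp, clamp loader, RPA and Okazaki processing genes had the median nearest to 0 among the roles, -0.09. Of 11, only RPA3 fell without the block, and RPA3, RFC3 (-0.23) and RFC4 (-0.17) fell with it. PCNA, the sliding clamp and also a p53 target, gave 0.04 with the block (edgeR adjusted p = 0.578), RPA1 gave 0.04 and the DNA ligase LIG1 0.01. RFC1, the large loader subunit, had Mps1i libraries wholly below the DMSO libraries but missed the threshold in both fits (edgeR adjusted p = 0.133 and 0.0593).

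None of the 5 nucleotide genes passed without the block. With it RRM2 (-0.23), DUT, which removes dUTP (-0.18), and TYMS, which makes dTMP (-0.14), fell, and RRM1 (-0.03) and TK1 (-0.07) did not pass. Exons of neighbouring genes cover 66.5% of TYMS and 17.1% of DUT. Of the 5 chromatin and histone genes UHRF1, NASP (-0.17), SLBP (-0.16) and CHAF1A (-0.15) fell with the block, and CHAF1B (-0.05) did not. The 3 fork checkpoint genes did not pass in either fit, with WDHD1 at -0.16, CLSPN at -0.11 and TIMELESS at -0.04 with the block. E2F1, itself an E2F target, gave -0.09 (edgeR adjusted p = 0.0832 with the block).

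Wider lists of the same pathways had medians nearer to 0. Of 28 other replication genes, 2 fell and 0 rose, with a median of -0.11, and with the block 8 fell. TICRR, which brings firing factors to the helicase, went from 20.9 CPM ± 1.84 to 15.6 ± 1.32 (SD, n = 4, edgeR adjusted p = 0.00943), and DBF4B, a second CDC7 activator, from 22.3 ± 3.25 to 17.9 ± 0.52 (SD, n = 4, edgeR adjusted p = 0.0457). The nuclease DNA2 (log2 fold change -0.31, edgeR adjusted p = 0.0514) and the MCM-binding gene MCMBP (-0.21, edgeR adjusted p = 0.0772) did not pass. Of 38 other G1/S control genes and E2F targets measured in this table, 7 fell and 3 rose, with a median of -0.10, and 17 fell and 4 rose with the block. Beside both lists, 609 of all 10577 genes fell and 668 rose without the block. With the block 1253 fell and 1340 rose.

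The 3 genes of that second list that rose without the block were CDKN1A, RRM2B and TFDP2, an E2F dimerisation partner at 28.3 CPM ± 1.25 in DMSO and 33 ± 1.6 in Mps1i cells (SD, n = 4, edgeR adjusted p = 0.0289), named after its value was seen to complete the count. CDKN1A, the p53-induced inhibitor of cyclin-dependent kinases, rose from 473 CPM ± 64.8 to 990 ± 112 (SD, n = 4, log2 fold change 1.06, edgeR adjusted p = 2.09e-04). RRM2B, the p53-induced subunit of ribonucleotide reductase, rose from 34.2 CPM ± 5.6 to 60.6 ± 10.5 (SD, n = 4, edgeR adjusted p = 0.00301), opposite in sign to its S-phase counterpart RRM2. Cyclin A2 (CCNA2), which acts in S phase and G2, fell from 340 CPM ± 7.94 to 250 ± 27.1 (SD, n = 4, edgeR adjusted p = 0.00292), and E2F2 fell from 13.2 CPM ± 2.25 to 8.73 ± 1.33 (SD, n = 4, edgeR adjusted p = 0.0198). All 20 genes of a G2/M list fell, with a median of -0.44 against -0.14 for the members. The part of cell cycle position in the members' values was not tested.

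The estimated effect of Mps1i was more negative in experiment 2 than in experiment 1 for 48 of 57 members. In edgeR's test of that difference 0 members passed, where 0.359% of all genes did, and 16 had an unadjusted p below 0.05, beside 12.6% of all genes. The median log2 change of the members was -0.10 within experiment 1 and -0.17 within experiment 2. MCM6 showed this most plainly among the helicase genes. Its mean was 130 CPM in DMSO and 131 CPM in Mps1i cells of experiment 1, and 108 CPM against 90.5 CPM in experiment 2 (edgeR adjusted p for the difference = 0.206). With 1 experiment left out, 36 members fell on experiment 2 alone, where 1315 of all 10577 genes fell. On experiment 1 alone 6 members fell, where 240 of all genes did. Each of these fits rests on the technical replicates of 1 experiment.

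Promoters were read to see what these genes share in sequence. Of the 57 members, 51 have a window of 250 bases before to 50 after a start site in the RefSeq promoter table (GRCh38.p14), and GINS4, MCM4, MCM5, POLD3, RPA2 and RPA3 do not. E2F motifs were searched as TTTCGCGC, TTTGGCGC and TTTCCCGC on both strands, where the first and the second can overlap on opposite strands. At least 1 window with such a motif was found for 25 of 51 members (49%), for 485 of the 7609 genes in all tables with a window (6.37%), and in 2.74% of all 35116 windows. The CHR core motif TTTGAA, found in promoters of many G2/M genes, was in windows of 3 of 51 members (DBF4, RRM1 and DUT) against 13.7% of the 7609 genes and 15.2% of all windows. Of the members that fell without the block, CDCA7, CDT1, GMNN and GINS1 had an E2F motif, DBF4 had a CHR core and PRIM2 had neither. The windows of these genes are shown with those of MCM6 and CDC6. These were added after their values were seen because their levels were among the highest in the synchronised libraries relative to MN+. MCM10, whose ratio to MN+ (2.74-fold) lay between those of CDC6 and MCM6, had neither motif in its windows and is not shown. Motifs are in capitals, all sequences run 5′ to 3′ on the gene's strand, and windows that touch an annotated exon were held to 30 bases.
CDCA7 promoter, chr2:173354796-173354825 (+): tgtgtcccaacGCGGGAAAgacagcccgag
CDT1 promoter, chr16:88803724-88803788 (+): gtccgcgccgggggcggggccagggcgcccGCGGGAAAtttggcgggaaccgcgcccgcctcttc
GMNN promoter, chr6:24775303-24775370 (+): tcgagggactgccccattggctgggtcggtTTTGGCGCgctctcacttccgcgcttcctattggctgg
GINS1 start region, chr20:25407667-25407696 (+): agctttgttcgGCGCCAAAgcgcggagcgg
DBF4 start region, chr7:87876478-87876507 (+): gcgtgacgcgttTTCAAAtcttcaaccgcc
CDC6 start region, chr17:40287875-40287904 (+): ggccattcggaTTTGGCGCgagcgcggctg
MCM6 promoter, chr2:135876492-135876625 (-): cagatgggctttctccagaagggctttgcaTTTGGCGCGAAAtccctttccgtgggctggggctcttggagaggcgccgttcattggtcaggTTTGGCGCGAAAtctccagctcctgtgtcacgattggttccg

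The first base of the motif lies 65 bases before the start site in CDCA7, 35 before it in CDT1 and 80 before it in GMNN, and at position 6 of the transcript in GINS1 and 8 in CDC6. In MCM6 the same 12 letters occur in both copies, each an overlap of 2 motifs on opposite strands, and the first copy starts 152 bases before the start site. The 25 members with an E2F motif had a median log2 fold change of -0.17 in Mps1i against DMSO, and the 26 without one -0.13. With the block 15 and 14 of them fell. A match gives letters only, and no binding was measured.

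No member passed between MN+ and MN- cells in the main test. Of all 10594 genes, 0 (0%) passed in either direction, and 789 (7.45%) had an unadjusted p below 0.05. Among the members 0 passed in edgeR, DESeq2 or limma-voom with the condition alone, 5 had an unadjusted p below 0.05 in edgeR, all lower (3.66% of all genes were lower at that p), and 43 of 57 estimates were negative. The median was -0.07. MN+ was lower in 4 of 4 pairs of the same experiment and pulse for 13 members, beside 14.3% of all genes. Per the methods the pulses were swapped between wells, so each of these pairs joins cells of different wells. All MN+ libraries lay below all MN- libraries for 4 members, beside 3.34% of all genes.

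GINS2, another subunit of the GINS complex (chr16:85676198-85690073), had the smallest p. It gave 71.9 and 68.9 CPM in MN- cells of experiment 1 (200 and 800 ms), 60.8 and 65.1 CPM in experiment 2, and 57.3, 51.8, 55.2 and 57.5 CPM in MN+ cells in the same order. The groups did not overlap, and the estimate was -0.27 ± 0.077 (SE, n = 4 per group, edgeR adjusted p = 0.641). CDCA7 gave 32.5, 29.9, 29.2 and 27.1 CPM in MN- and 26.5, 22.9, 25.5 and 23.3 CPM in MN+, at -0.28 ± 0.0892 (SE, n = 4 per group, edgeR adjusted p = 0.641). GMNN gave 93.1, 90.5, 84.4 and 81.8 CPM in MN- and 78.6, 81.1, 77.5 and 72.9 CPM in MN+, at -0.18 ± 0.0725 (SE, n = 4 per group, edgeR adjusted p = 0.641). CDCA7 and GMNN were also apart between the groups, by little.

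SLBP, which binds the stem-loop of histone mRNA (chr4:1692731-1712344), had the largest estimate, -0.29 ± 0.126 (SE, n = 4 per group, edgeR adjusted p = 0.641). Much of it came from the MN- 200 ms library of experiment 1 at 228 CPM, beside 167, 150 and 162 CPM in the other MN- libraries and 158, 142, 147 and 132 CPM in MN+. Without that library the estimate was -0.14. When both pulses of an experiment were summed and the experiment kept as a block, GINS2 (edgeR adjusted p = 0.0178), CDCA7 (edgeR adjusted p = 0.0454) and SLBP (edgeR adjusted p = 0.0105) passed as lower in MN+, beside 3.37% of all genes that did. DESeq2 with the replicate block called GINS2 alone among the members (adjusted p = 0.0327 in DESeq2), where 57 of all 10594 genes were lower and 109 higher. The summed fit has 2 libraries per group, and in edgeR with the block on the 8 unsummed libraries 0 members passed. The MN+ effect differed between experiments for 0 members (0.00944% of all genes, edgeR), and 0 members had an unadjusted p below 0.05 for it. Of the other lists, 0 of 28 replication genes and 0 of 37 G1/S genes passed in MN+ against MN-, with 0 and 6 at an unadjusted p below 0.05 in edgeR, and 0 of 20 G2/M genes passed, with 4.

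Between rupture+ and rupture- cells 0 of 57 members passed in edgeR, DESeq2 or limma-voom, where 3 of 9461 genes (0.0317%) did in edgeR. The members' median was -0.01, with 24 estimates above and 33 below 0, and 3 had an unadjusted p below 0.05, beside 8.95% of all genes. The 3, named for the smallest p, were CDT1, ORC1, the largest origin subunit, and CHAF1A, the large subunit of the histone chaperone CAF-1. CDT1 gave 81.5, 73.9 and 69 CPM in rupture- cells (experiments 1 to 3) and 61.9, 69 and 45.4 CPM in rupture+, at -0.36 ± 0.145 (SE, n = 3 per group, edgeR adjusted p = 0.55). ORC1 gave 68, 68.3 and 67 CPM against 57.3, 61.4 and 58.3 CPM, at -0.21 ± 0.0776 (SE, n = 3 per group, edgeR adjusted p = 0.55). CHAF1A gave 125, 117 and 112 CPM against 103, 105 and 101 CPM, at -0.21 ± 0.0807 (SE, n = 3 per group, edgeR adjusted p = 0.55). In each of these 3 genes the rupture+ libraries lay below the rupture- libraries of the same experiment, and 4 members in all had groups that did not overlap, beside 5.9% of all genes.

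POLE, the catalytic subunit of polymerase epsilon (chr12:132623753-132687376), had the second largest estimate, -0.22 ± 0.147 (SE, n = 3 per group, edgeR adjusted p = 0.601). Its values crossed between groups, with 57.7, 92.5 and 82.9 CPM in rupture- and 69.6, 67.7 and 64.4 CPM in rupture+. In edgeR 0 of 28 other replication genes, 0 of 37 G1/S genes and 0 of 20 G2/M genes passed between rupture+ and rupture-, with 0, 2 and 3 at an unadjusted p below 0.05, and the median of the G2/M genes was 0.20. The pulse was tested where a group had both lengths. At 800 against 200 ms 0 of 57 members passed in edgeR in the Mps1i and DMSO libraries and 0 in the MN libraries, beside 0.00945% and 0% of all genes, where 2 and 0 had an unadjusted p below 0.05 and the medians were 0.01 and -0.03.

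**Figure D4:**
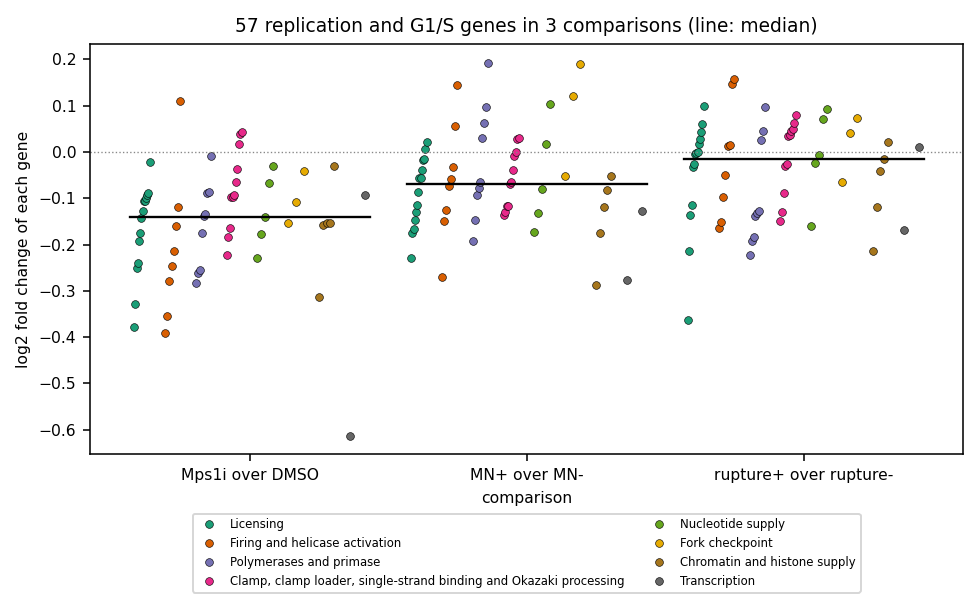
Log2 fold change of each of the 57 genes in the 3 comparisons, coloured by role; the line is the median. The median lies at -0.14 for Mps1i over DMSO, -0.07 for MN+ over MN- and -0.01 for rupture+ over rupture-. The comparisons use separate libraries.

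The synchronised libraries stood apart in these genes. The summed level of the 57 members was 10597 to 11836 CPM in the 6 synchronised libraries, above all 16 others. It was 8183 to 9518 CPM in DMSO, 7244 to 8952 in Mps1i, 7181 to 7596 in MN- and 6815 to 7201 CPM in MN+. The summed level of the 20 G2/M genes ran the other way, at 2306 to 3191 CPM in the synchronised libraries and 5128 to 7885 CPM in the unsynchronised ones. Across the synchronised libraries 26 members were above every unsynchronised library, where 7.07% of the 9431 genes were, and 0 were below all of them. Of the G2/M genes 18 of 20 were below every unsynchronised library, where 6.05% of all genes were. As tables, days and synchronisation coincide, these levels are a description with no test.

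**Figure D5:**
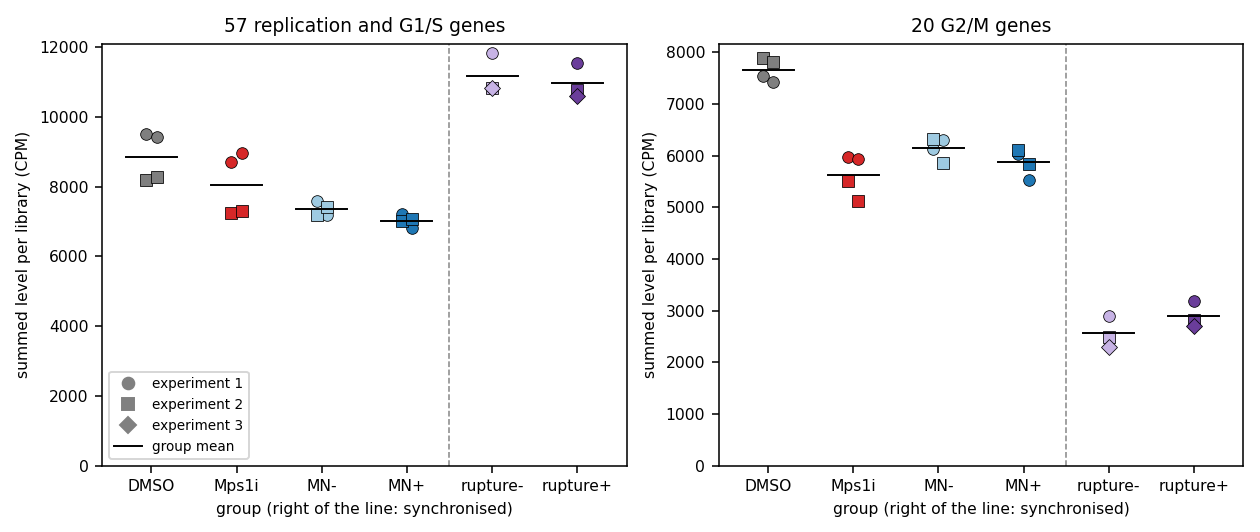
Summed CPM of the 57 replication and G1/S genes (left) and of 20 G2/M genes (right) in each library, by group, with the group mean as a line and the experiment as the symbol. The 6 synchronised libraries, right of the dashed line, are the highest on the left (10597 to 11836 CPM) and the lowest on the right (2306 to 3191 CPM).

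MN+ cells are the unsynchronised group nearest in kind, since they too received Mps1i and carried micronuclei. Relative to the MN+ mean, the median member was 1.55-fold higher in the synchronised libraries (all genes 0.989-fold), and 52 of 57 were above 1. CDC6 had the largest ratio, 3-fold. It gave 300, 278 and 271 CPM in rupture- and 304, 262 and 289 CPM in rupture+, and 87.6 to 147 CPM in the unsynchronised libraries. MCM10 (chr10:13161558-13211110), which acts when the helicase is switched on, gave 138, 130 and 132 CPM in rupture- and 140, 135 and 132 CPM in rupture+ against at most 81.2 CPM elsewhere, 2.74-fold above MN+. MCM6 (chr2:135839626-135876443) gave 207, 193 and 193 CPM in rupture- and 208, 195 and 203 CPM in rupture+ against at most 138 CPM, 2.52-fold above MN+. For these 3 genes the synchronised libraries were closer to each other than to any other library.

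Genes with one role did not all stand apart alike. Of the 14 licensing genes 7 were above every unsynchronised library (MCM2, MCM3, MCM4, MCM6, CDC6, GMNN and ORC1), while ORC2, ORC3 and ORC5 overlapped and had ratios of 0.826, 1.07 and 1.14 to MN+. Of the firing genes MCM10, CDC45, GINS2 and GINS3 stood above, and DBF4 did not. DBF4 gave 42.1, 36.7 and 33.9 CPM in rupture- and 43.7, 38.9 and 44.4 CPM in rupture+, within or below the low end of the unsynchronised range of 42.1 to 66.1 CPM. FEN1, the flap nuclease of Okazaki processing (2.28-fold), RFC4 (2.14-fold) and PCNA (1.92-fold) were high, and RPA3 (0.962-fold) was not. None of the 5 nucleotide genes stood above all others. TK1 gave 246 to 369 CPM against 303 to 433 CPM, a ratio of 0.95, and RRM2 overlapped because of the DMSO libraries of experiment 1. Of the chromatin genes 4 of 5 stood above (CHAF1B, SLBP, UHRF1 and CHAF1A, at 1.58 to 2.1-fold).

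The same set of genes showed different orders in the comparisons. GMNN, CDCA7, MCM10 and UHRF1 had negative estimates in Mps1i against DMSO and were high in the synchronised cells. DBF4 and PRIM2 fell with Mps1i and were not above the other groups when synchronised, and CDC6, MCM6 and PCNA, which stood above every other library in the synchronised cells, had estimates of -0.02, -0.11 and 0.04 in Mps1i against DMSO that did not pass. Members with an E2F motif in a promoter window had a median of 0.75 on the log2 scale over MN+ in the synchronised libraries, with 14 of 25 above every unsynchronised library. Those without one had a median of 0.44, with 9 of 26 above. CDKN1A was 572 to 978 CPM in the synchronised libraries, 1068 to 1357 CPM in MN+ and had a mean of 473 CPM in DMSO. In DMSO the members summed to 8183 to 9518 CPM, also below the synchronised libraries. The part of CDKN1A in the members' levels was not tested.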

How the data were processed

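Bulk RNA-seq (SMART-Seq v4 with Nextera XT, unstranded, paired reads) was analysed in 22 libraries, which stand for 29 labelled samples. The column names give 7 columns as libraries of 2 samples. The authors quantified reads with Salmon 1.2 (and bcl2fastq 2.20) on hg38, per the labels' processing notes, summarised transcripts with tximeta and deposited gene-level estimated counts (expected counts, whole numbers in the tables) for genes with at least 700 in 2 or more samples. Gene symbols, positions and transcript lengths came from GENCODE v44.

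The main test was edgeR 4.0.16 (quasi-likelihood, TMM scaling in each table, condition alone, R 4.3.3) with Benjamini-Hochberg adjustment over all genes of a table. Alternatives were the experiment as replicate block, DESeq2 1.42.0, limma 3.58.1 (voom), other scaling and filters, each library and experiment left out, and pulse as a term or summed. Pairing came from the shared dates in the titles, and deviations of paired libraries correlated at 0.0279 to 0.38 in the Mps1i table. The range was -0.0133 to 0.659 in the MN table and 0.00951 to 0.229 in the rupture table. In the rupture table unpaired libraries correlated at up to 0.104, so the pairing was less clear there. The study describes the pulses of a DMSO or Mps1i experiment as technical replicates, so p-values over unsummed libraries measure partly technical spread. The methods describe separate wells within each MN experiment, with the pulses of MN+ and MN- cells swapped between them. For the rupture cells they describe a single well per experiment, so rupture+ and rupture- cells shared a well.

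The members, their roles and all lists were chosen with earlier results of these data known. Genes were named by rule, namely those with the largest changes among members that passed, the smallest p where fewer than 3 passed, the largest that did not pass, and the 3 highest and lowest levels.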

Additional observations from a re-analysis of the deposited data

Results flagged for a closer look

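In the 228 sets of 4 libraries (57 genes in DMSO, Mps1i, MN- and MN+), 6 values stood far from the other 3 by Dixon's test, where chance gives about 1 in 20. DUT was 173 CPM in DMSO 800 ms of experiment 1, beside 155 to 157 CPM. RPA3 was 64.4 CPM in Mps1i 200 ms of experiment 1, beside 57.2 to 58.4 CPM, and this is the library without which its call held. In MN- 200 ms of experiment 1 POLA1 was 16.2 CPM beside 20.1 to 20.4 CPM. The other 3 were all in MN+ 800 ms of experiment 1, where ORC1 was 22.7 CPM beside 28.1 to 29.2 CPM, POLA1 was 15.5 CPM beside 22 to 23.1 CPM, and ORC2 was 29.9 CPM beside 25.3 to 26.1 CPM. As the methods swap the pulses between wells, MN- 200 ms and MN+ 800 ms of experiment 1 came from the same well. The part of the well in these values was not tested, and 6 of 228 is a smaller share than 1 in 20.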

How the results depend on the processing

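No member rose in Mps1i cells under any alternative, and the count that fell depended on how the experiment was treated. It was 7 with the condition alone, 32 with the replicate block and 12 with pulses summed and the replicate block. With 1 library left out it was 4 (without Mps1i 200 ms of experiment 2) to 10 (without Mps1i 800 ms of experiment 1). In these fits, in that order, 338 and 596 of all 10577 genes fell. The members' count was 37 in DESeq2 with the replicate block and 36 without experiment 1, where 1501 and 1315 of all 10577 genes fell. In MN+ against MN- the count was 1 in DESeq2 with the replicate block and 3 with pulses summed and the replicate block, and 0 otherwise. Of all 10594 genes, 57 and 357 fell in the first and second of these fits. The replicate block changed no call between rupture+ and rupture-. No named gene changed sign. With 1 library left out the members' median stayed at -0.18 to -0.10 in Mps1i, at -0.08 to -0.06 in MN+ and at -0.05 to 0.04 in rupture+. Scaling to library totals left 27 members above every unsynchronised library, where 698 of the 9431 genes were. By spelling, TTTCGCGC was found for 6 members, TTTGGCGC for 9 and TTTCCCGC for 15. Each comparison rests on 2 experiments, or 3 for rupture, at 47919780 counts or more per library.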

Other observations

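The cyclin E genes, which drive entry into S phase, had the largest ratios of the other G1/S genes between synchronised and MN+ cells, and like the other genes of this paragraph were picked out after their values were seen. CCNE2 was 187 to 248 CPM in the synchronised libraries and 22.7 to 62.5 CPM in the unsynchronised ones, 7.29-fold above the MN+ mean. CCNE1 was 38 to 44.8 CPM against 5.8 to 11.3 CPM, 4.79-fold above MN+. EXO1, a nuclease of mismatch repair, followed at 156 to 170 CPM against 39.7 to 81.5 CPM. Of the 36 other G1/S and E2F genes of the shared genes, 13 stood above every unsynchronised library and 0 below, and of the 28 other replication genes 7 stood above and 1 below. The 1 below was DBF4B, at 11.1 to 15.5 CPM against 17.3 to 28.8 CPM. CDK6 was 27.9 to 47.6 CPM in MN+ and 11.2 to 15.6 CPM in the DMSO and Mps1i libraries, although MN+ and Mps1i cells received the same drug. These genes are in different tables there, and the part of the table was not tested.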
